A study of Mus musculus with 12 samples.

Results

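The effect of apo-transferrin on the transcriptome of β-thalassemic pro-erythroblasts (Pro-E) was set against its effect on wild-type (WT) Pro-E, gene by gene. Per gene, the value compared was a genotype difference: apoTf-treated minus untreated β-thalassemic Pro-E, less apoTf-treated minus untreated WT Pro-E, on log2 of FPKM plus 0.5. FPKM is a fragment count scaled by gene length and library depth. A negative genotype difference means a stronger decrease, or a weaker increase, after apoTf when the cells were β-thalassemic. All 12 libraries of the series entered. Of 24453 genes in the deposited table, 9650 reached 1 FPKM in 3 or more libraries and were tested. Because 1 untreated WT library stood apart from the other 11, each comparison was repeated without it, over the same 9650 genes.

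The 4 groups of 3 libraries each were Hbb th1/th1 mice given apoTf (apoTf-treated β-thalassemic), Hbb th1/th1 mice injected with PBS (β-thalassemic), WT mice given apoTf (apoTf-treated WT) and WT mice given PBS (WT). The th1 allele is a deletion of the adult β-major globin gene. ApoTf was human transferrin carrying no iron, injected at 10 mg (400 mg/kg/day) for 20 days, with an equal volume of PBS in the other groups. The labels place collection both 3 days after the last injection and a day after a second phlebotomy. Each library was made from polyadenylated RNA of Pro-E sorted from the marrow of 2–3 pooled mice, so a p-value measures the spread between pools. The labels give strain C57BL6 and an age of 5 months for every library, while the study's methods name a mixed background and a younger age. Every label also mentions a phlebotomy of 0.4 mL, and the sources used here do not settle if it applied to these animals. Title and genotype tag contradict each other in all 12 labels, and titles were used. Grouped by title, the β-globin gene Hbb-bs was at 95.8–201 FPKM in apoTf-treated β-thalassemic, 131–172 FPKM in β-thalassemic, 1091–3229 FPKM in apoTf-treated WT and 714–1784 FPKM in WT libraries. The Hbb-b1 entry was nearly equal to it in every library, so these entries were not read as separate measures. All 6 β-thalassemic libraries were below every WT library, in the direction the titles give.

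Pro-E are the first recognisable cells of terminal erythropoiesis, and depend on erythropoietin (Epo) for survival. Epo engages its receptor and the kinase JAK2, which phosphorylates STAT5, and STAT5 then switches on genes such as Cish, Pim1 and Osm. In β-thalassemia, excess α-globin and death of erythroblasts keep Epo high. Erythroferrone (Fam132b in the table, also named Erfe) is an Epo-induced hormone of erythroblasts that lowers hepcidin, and pleckstrin-2 (Plek2) is a membrane and actin adaptor downstream of Epo. Exogenous apoTf binds iron and changes how much of it reaches erythroid precursors through transferrin receptors.

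The libraries held 33300000 to 51400000 reads, as read from the steps of 1 read in the FPKM of short genes. WT replicate 1 was the shallowest. Its median Spearman correlation with the other libraries was 0.87, against 0.98 to 0.99 for each of the other 11, and its ribosomal precursor Rn45s was at 31177 FPKM against 1609 to 6116 FPKM elsewhere. The 9 markers fixed for pro-erythroblasts (among them Kit, Gata1, Klf1 and Tfrc) were all among the genes tested, with a summed level of 915–968 FPKM in apoTf-treated β-thalassemic, 824–995 FPKM in β-thalassemic, 918–971 FPKM in apoTf-treated WT and 694–1030.5 FPKM in WT libraries. The 11 neutrophil markers summed to 1.95–11.8, 0.865–7.13, 2.61–50.3 and 2.81–40.9 FPKM in the same 4 groups, with Ly6g at 0 throughout, and their 6 tested genes had a median genotype difference of 0.37 with 12 and 0.96 with 11 libraries, none of them passing. The 7 later erythroblast markers found in the table summed to between 560 and 1061 FPKM. Macrophage markers summed to at most 4.03 FPKM, with Adgre1 under 0.1 FPKM in every library, and B cell, T and NK cell, mast cell and stromal markers to at most 1.54 FPKM each. The 9 megakaryocyte markers summed to 11.4–15.7 FPKM in apoTf-treated β-thalassemic, 9.16–10.9 FPKM in β-thalassemic, 9.19–13.4 FPKM in apoTf-treated WT and 12.9–20.3 FPKM in WT libraries. The β-thalassemic groups did not overlap, and the WT groups did. Gp1bb, Gp6 and Treml1 were under 0.1 FPKM throughout, and the 2 tested members had a median genotype difference of 0.66 with 12 and 0.49 with 11 libraries, 1 of them at an unadjusted p under 0.05. Over all genes tested the medians were −0.08 and 0.08, with 4.17% and 4.31% positive at that p, and 2 genes are too few to describe a cell type. The part of these cells in the results was not tested.

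No gene passed an adjusted p of 0.05 for the genotype difference, with 12 libraries or with 11 (limma, Benjamini-Hochberg over 9650 genes, percent called 0 in both). At an unadjusted p under 0.05 the 12-library comparison held 473 genes, 4.9% of those tested, of which 402 (4.17%) had a positive and 71 (0.736%) a negative difference. With 11 libraries there were 477 genes (4.94%), of which 416 (4.31%) were positive and 61 (0.632%) negative. Of these, 296 positive and 54 negative genes were shared by both comparisons. The smallest adjusted p belonged to Podxl, at 0.0821 with 12 and 0.0895 with 11 libraries. The median 95% interval, before adjustment over genes, reached 0.63 to either side of the difference with 12 libraries and 0.43 with 11. For a typical gene a smaller difference could not be told from 0. Passing after adjustment needed far more, as −3.19 for Podxl did not pass.

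Each genotype was also read on its own. In β-thalassemic Pro-E, apoTf lowered 3 of 9650 genes (0.0311%) with 12 libraries in the fit: Podxl, Cda and Tnfrsf21. Of these, Podxl and Cda were tested only because they reached 1 FPKM in the untreated β-thalassemic libraries. Their lower level after apoTf was thus favoured by the filter. ApoTf lowered 6 (0.0622%) once WT replicate 1 was left out, with Cpd and Fam132b among the additional genes. None rose in either case. Unadjusted p was under 0.05 for 138 genes (1.43%) with 12 and 374 (3.88%) with 11 libraries, of which 80 (0.829%) and 148 (1.53%) were lower after apoTf. In WT Pro-E, apoTf moved no gene past the threshold with 12 or 11 libraries (smallest adjusted p 0.29 and 0.537, limma), while 984 (10.2%) and 448 genes (4.64%) had an unadjusted p under 0.05. Of these, 849 (8.8%) and 421 (4.36%) were lower and 135 (1.4%) and 27 (0.28%) higher after apoTf. Passing in 1 genotype and not in the other does not show a difference, and for these 6 genes the difference itself did not pass. Across 9650 genes, which are not independent replicates, the estimated effects in both genotypes correlated little. Pearson's r was 0.06 and Spearman's rho 0.10 with 12 libraries, and 0.01 and 0.05 with 11. The median absolute effect was 0.08 in β-thalassemic Pro-E, below a median standard error of 0.20 with 12 and 0.13 with 11 libraries. In WT Pro-E it was 0.27 against 0.20 with 12, and 0.10 against 0.15 with 11. With errors of that size, a low correlation cannot show whether the effects themselves are related.

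**Figure D1:**
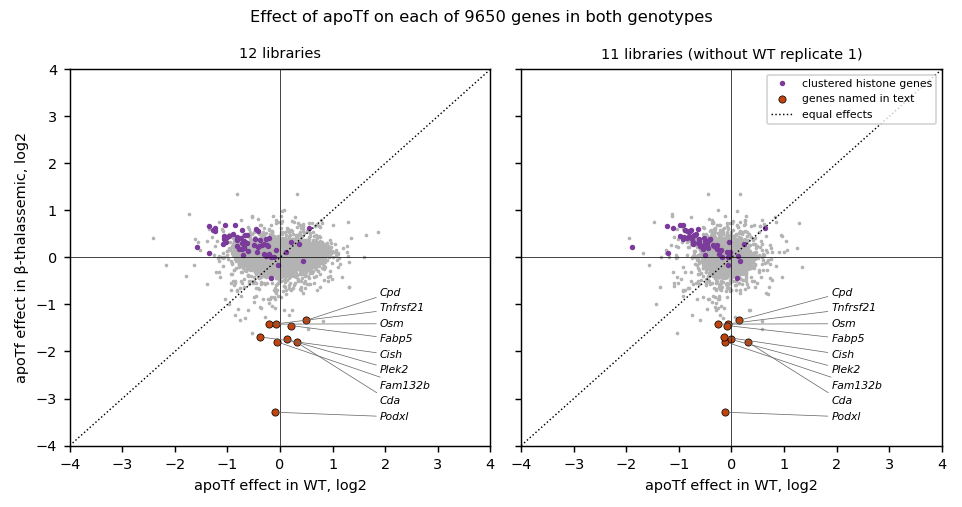
Effect of apoTf on each of 9650 genes (log2 of FPKM plus 0.5, apoTf-treated minus untreated) in β-thalassemic Pro-E on the y axis and in WT Pro-E on the x axis, with 12 libraries on the left and 11 on the right. Podxl lies at −3.29 on the y axis and −0.10 on the x axis with 12 libraries, and the clustered histone genes (purple) lie mostly left of 0 and above it.

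Podxl encodes podocalyxin, a sialomucin of haematopoietic progenitors (chr6:31519488-31563981, minus strand, GENCODE on GRCm38, the build called mm10). It was at 1.56, 0.799 and 0.62 FPKM in apoTf-treated β-thalassemic, against 10.8, 23.6 and 9.86 FPKM in β-thalassemic libraries. In apoTf-treated WT libraries it was at 0.286, 0.368 and 0.223 FPKM, against 0.323, 0.318 and 0.403 FPKM in WT libraries. Every untreated β-thalassemic library was above every other library, and all WT libraries, treated or not, were low. All WT libraries lay below the 0.5 FPKM added before the log, so an effect of −3.29 could not have shown in WT Pro-E. Podxl reached 1 FPKM in the untreated β-thalassemic libraries and in only 1 other, so it was tested only because it was high there. ApoTf lowered it by a log2 effect of −3.29 ± 0.30 (SE, adjusted p = 0.00162, limma) in β-thalassemic Pro-E, beside an effect of −0.10 ± 0.30 in WT Pro-E. The difference between genotypes was −3.19 (95% interval −4.13 to −2.26, n = 3 libraries per group, adjusted p = 0.0821, limma) and −3.17 without WT replicate 1 (adjusted p = 0.0895). It passed the threshold without β-thalassemic replicate 2, the highest library, at −2.80 (adjusted p = 0.0364, limma), and ranged from −3.54 to −2.80 over 22 alternatives.

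Fam132b (erythroferrone, chr1:91366430-91374217) followed the same order at a smaller size. It was at 2.30, 1.72 and 2.17 FPKM in apoTf-treated β-thalassemic against 8.82, 13.3 and 4.89 FPKM in β-thalassemic libraries, and at 1.17, 1.70 and 1.36 FPKM in apoTf-treated WT against 1.33, 1.38 and 1.75 FPKM in WT libraries. The untreated β-thalassemic libraries did not overlap any other group. Its effect in β-thalassemic Pro-E was −1.79 ± 0.28 (adjusted p = 0.0764, and 0.0251 without WT replicate 1), its effect in WT Pro-E was −0.06 ± 0.28, and the difference was −1.73 ± 0.39 (adjusted p = 0.744, limma).

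Plek2 (chr12:78888691-78906964) was at 1.98, 2.36 and 2.38 FPKM in apoTf-treated β-thalassemic libraries. In β-thalassemic libraries it was at 9.36, 14.8 and 4.58 FPKM. In apoTf-treated WT libraries it was at 0.479, 1.98 and 1.42 FPKM, against 0.75, 1.00 and 1.38 FPKM in WT libraries. Untreated β-thalassemic libraries were again highest but ran from 4.58 to 14.8 FPKM, and treated and untreated WT libraries overlapped. The difference was −1.88 ± 0.55 (95% interval −3.08 to −0.68, adjusted p = 0.764, limma), and −1.74 without WT replicate 1 (adjusted p = 0.781). The effect of apoTf in β-thalassemic Pro-E was −1.74. Untreated WT levels were low beside the 0.5 FPKM added before the log. With 12 libraries, even a complete loss of Plek2 in WT Pro-E could not have shown an effect of that size.

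**Figure D2:**
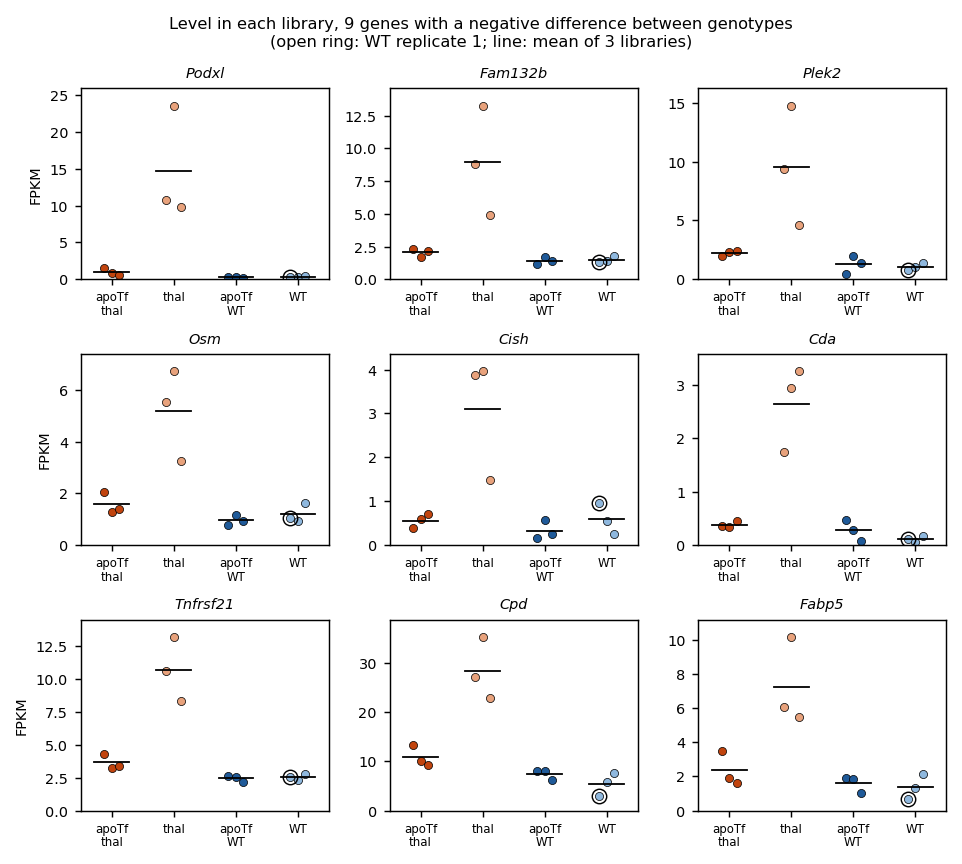
FPKM of 9 genes with a negative difference between genotypes in each library (points), by group, with the mean of 3 libraries as a line and WT replicate 1 ringed. Untreated β-thalassemic libraries were above all other groups in each panel, as for Podxl at 9.86 to 23.6 FPKM.

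Osm and Cish, both textbook targets of STAT5, had the same arrangement. Osm, the cytokine oncostatin M, was at 2.06, 1.28 and 1.39 FPKM in apoTf-treated β-thalassemic against 5.55, 6.73 and 3.27 FPKM in β-thalassemic libraries, and between 0.788 and 1.61 FPKM in all WT libraries. Cish, a feedback inhibitor of cytokine receptors, was at 0.388, 0.582 and 0.695 FPKM in apoTf-treated β-thalassemic against 3.88, 3.96 and 1.48 FPKM in β-thalassemic libraries, and between 0.148 and 0.962 FPKM in all WT libraries. Neither gene's untreated β-thalassemic libraries overlapped another group. Cish reached 1 FPKM in those 3 libraries only, so it was tested only because it was high there. Its WT levels were near the 0.5 FPKM added before the log, so a fall as large as in β-thalassemic Pro-E could not have shown. The differences were −1.21 ± 0.36 for Osm and −1.31 ± 0.48 for Cish (both adjusted p = 0.764, limma), and −1.15 and −1.55 without WT replicate 1 (both adjusted p = 0.781).

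Of 17 genes listed as Epo-responsive, 10 were tested and none passed (background 0 of 9650). Their median difference was −0.97 with 12 and −1.04 with 11 libraries, where the median of all genes tested was −0.08 and 0.08. With 12 libraries 8 of the 10 were below 0, and with 11 libraries 9 were, where 5584 and 3026 of all 9650 genes were. With an unadjusted p under 0.05 there were 5 and 6 negative genes and no positive one, against 0.736% and 0.632% of all genes. Without Podxl, Fam132b and Plek2, which the study chose on these libraries, the median of the other 7 was −0.66 and −0.60. The list is no independent evidence of its direction, since it was written with results of these libraries known. Podxl and Cish also passed the filter only through their high group.

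The members differed among themselves. Pim1, a STAT5-induced survival kinase, was at 8.73, 11 and 9.35 FPKM in apoTf-treated β-thalassemic against 26.2, 28 and 12.5 FPKM in β-thalassemic libraries, and at 6.28 to 10.1 FPKM in apoTf-treated WT against 8.70 to 14.6 FPKM in WT libraries, with a difference of −0.73 (unadjusted p = 0.109, limma). Ccnd2, a G1 cyclin, had a difference of −0.66, Pim3, a kinase of the same family, of 0.10 (−0.19 without WT replicate 1), Bcl2l1, the anti-apoptotic protein BCL-XL, of −0.08, and Myc of 0.55 (unadjusted p from 0.11 to 0.772 with 12 libraries, limma). So the genes with large differences were not the whole list. Of the 7 members not tested, Socs1, Socs3, Id1 and Serpina3g were at most 0.122 FPKM, Socs2 at most 0.432 FPKM and Egr1 at most 0.823 FPKM, and Pim2 lay between 0.688 and 1.08 FPKM.

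The receptor and its signalling chain had positive list medians. All 11 listed genes, including Epor, Jak2, Stat5a and Stat5b, were tested and none passed, with a median difference of 0.23 with 12 and 0.27 with 11 libraries. Epor, the Epo receptor, was at 43.8, 44.4 and 46.3 FPKM in apoTf-treated β-thalassemic against 35.3, 35.1 and 48.5 FPKM in β-thalassemic libraries. It was at 33.8, 39.6 and 39.5 FPKM in apoTf-treated WT against 79.2, 40.6 and 57.0 FPKM in WT libraries. The β-thalassemic groups overlapped, and the WT groups did not. Its difference was 0.78 ± 0.31 (adjusted p = 0.764, limma), 0.55 without WT replicate 1, the library at 79.2 FPKM, and 0.22 with each library's trend on GC content removed.

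STAT5 dimers bind the palindrome TTCNNNGAA, and the promoter windows of the Epo-responsive genes were searched for it because those genes had the largest negative median. The windows are RefSeq promoters on GRCm38.p6, from 250 bases before to 50 after a gene's start, 1 window per gene, and both strands were searched. A match was present in 2288 of 27025 windows (8.47%), and in 3 of the 10 listed genes that have a window: Cish, Serpina3g and Socs3. These are not the 10 genes tested for a difference. Serpina3g and Socs3 were at most 0.029 and 0.09 FPKM and were not tested, which leaves Cish alone. The share is therefore not one among genes with a negative difference. Of 88 genes named by the rule for naming, 67 had a window, and Podxl and Osm were not among them. Among named genes outside the Epo-responsive list, Gab1, Ifit2, Alas1, Bst2 and Sod2 also held TTCNNNGAA. For the cholesterol genes described further on, TCACNCCAC, a core of the sterol element bound by SREBP, was in 330 windows (1.22%) and in 1 of 11 listed genes, Hmgcs1. Outside that list, the named gene Ftl1 held it too. Stretches around the matches of Cish and Hmgcs1, and a promoter stretch of Plek2 and Fam132b, are given 5′ to 3′ on the gene's strand with matches in capitals.
Cish, chr9:107296559-107296678, plus strand: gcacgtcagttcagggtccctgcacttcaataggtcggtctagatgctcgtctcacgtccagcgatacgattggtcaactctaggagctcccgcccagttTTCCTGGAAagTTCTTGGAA
Plek2, chr12:78906939-78907038, minus strand: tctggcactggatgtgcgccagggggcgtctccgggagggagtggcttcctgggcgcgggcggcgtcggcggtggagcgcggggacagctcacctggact
Fam132b, chr1:91366330-91366429, plus strand: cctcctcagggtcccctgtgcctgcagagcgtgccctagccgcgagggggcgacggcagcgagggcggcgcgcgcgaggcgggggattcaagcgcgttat
Hmgcs1, chr13:119690171-119690270, plus strand: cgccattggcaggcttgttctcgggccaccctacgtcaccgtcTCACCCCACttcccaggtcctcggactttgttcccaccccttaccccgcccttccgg
The matches in Cish occupy bases 1 to 9 and 12 to 20 counted from the RefSeq start, and that in Hmgcs1 bases −137 to −129. Plek2 and Fam132b hold neither motif in their windows, which says only that these letters are not there.

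Cda, Tnfrsf21 and Cpd are outside the Epo list and had the same arrangement. Cda, cytidine deaminase of the pyrimidine salvage pathway (chr4:138338424-138367992), was at 0.347, 0.344 and 0.453 FPKM in apoTf-treated β-thalassemic against 1.75, 2.95 and 3.26 FPKM in β-thalassemic libraries, and at 0.459, 0.286 and 0.079 FPKM in apoTf-treated WT against 0.111, 0.053 and 0.168 FPKM in WT libraries. Like Cish it reached 1 FPKM only in the untreated β-thalassemic libraries, so the filter itself favoured a decrease from that group and its p-values are given with that limit. Cda was below 0.5 FPKM in every WT library, so a fall as large as that in β-thalassemic Pro-E could not have shown there. Its effect in β-thalassemic Pro-E was −1.81 ± 0.23 (adjusted p = 0.0167, limma) and its difference −2.12 ± 0.33 (adjusted p = 0.152, and 0.155 without WT replicate 1).

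Tnfrsf21 encodes death receptor 6 (chr17:43016555-43089189). It was at 4.32, 3.24 and 3.40 FPKM in apoTf-treated β-thalassemic against 10.6, 13.2 and 8.29 FPKM in β-thalassemic libraries, and between 2.16 and 2.79 FPKM in every WT library. The 4 groups therefore stood in 3 tiers, with apoTf-treated β-thalassemic libraries above all WT libraries. Its effect in β-thalassemic Pro-E was −1.41 ± 0.18 (adjusted p = 0.0167, limma), against −0.07 ± 0.18 in WT Pro-E, and its difference was −1.35 ± 0.25 (adjusted p = 0.442, and 0.218 without WT replicate 1). Among 13 tested genes of apoptosis it was the outlying member: the median of the list was 0.03 with 12 and 0.02 with 11 libraries.

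Cpd, carboxypeptidase D of the secretory pathway (chr11:76778424-76847018), had the highest FPKM of these 3 genes. It was at 13.3, 10.0 and 9.31 FPKM in apoTf-treated β-thalassemic against 27.1, 35.3 and 22.8 FPKM in β-thalassemic libraries, and at 7.95, 8.0 and 6.29 FPKM in apoTf-treated WT against 2.91, 5.79 and 7.67 FPKM in WT libraries. WT replicate 1 was the lowest library, and without it the difference was −1.47 ± 0.27 (adjusted p = 0.218, limma) in place of −1.83 ± 0.40 (adjusted p = 0.744). Its effect in β-thalassemic Pro-E was −1.34, which passed in the 11-library comparison (adjusted p = 0.0135, limma) and not with 12 (adjusted p = 0.45).

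For these genes the gap between genotypes was large in untreated and smaller in apoTf-treated Pro-E, which is the same difference read the other way. Under apoTf, Podxl was higher by 0.87 in β-thalassemic Pro-E, relative to WT, (adjusted p = 0.845 with 11 libraries), against 4.06 under PBS (adjusted p = 0.000141 with 12 libraries, limma). The corresponding gaps under apoTf and under PBS were 0.21 and 2.34 for Cda, 0.50 and 1.84 for Tnfrsf21, 0.51 and 2.35 for Cpd, 0.43 and 2.16 for Fam132b, 0.71 and 2.59 for Plek2, 0.51 and 1.72 for Osm and 0.38 and 1.69 for Cish. All of these estimates were positive, but for none of these 8 genes did the gap under apoTf pass after adjustment, with 12 or 11 libraries (limma). With 12 libraries its interval, before adjustment over genes, ran from negative to positive values for Cda, Cpd, Fam132b, Plek2, Osm and Cish. The intervals of Podxl and Tnfrsf21 were positive throughout. A level that stayed above WT under apoTf is thus not shown for the genes whose interval changed sign. Fewer cells of a state and less RNA per cell cannot be told apart in such pooled libraries.

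**Figure D3:**
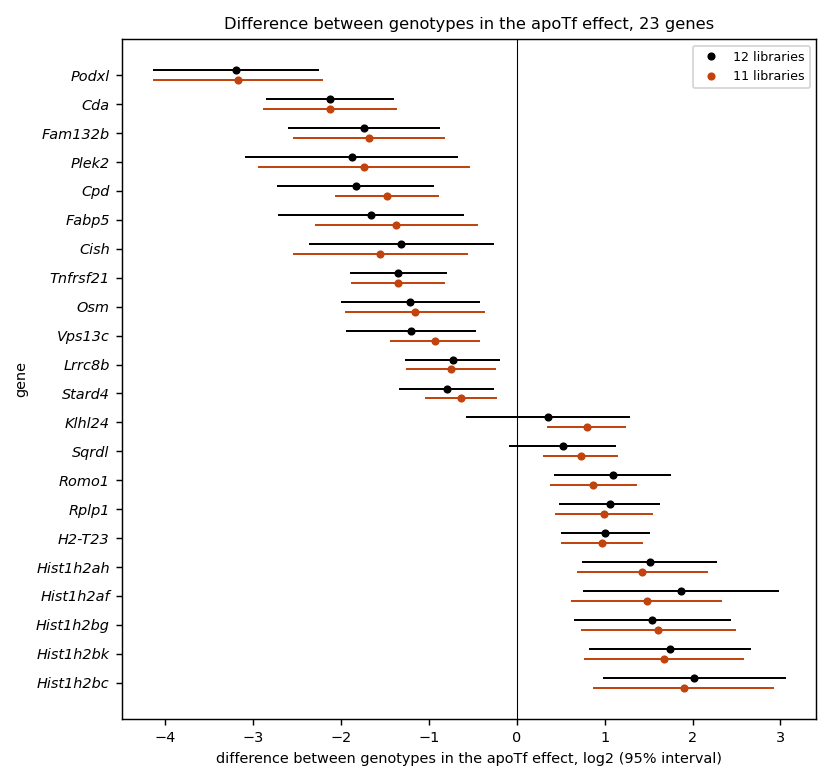
Genotype difference in apoTf response (log2, point) with its 95% interval (line) for 22 genes, with 12 libraries in black and 11 in orange. The interval of Podxl is −4.13 to −2.26 with 12 libraries, and the Klhl24 interval includes 0 with 12 libraries (−0.56 to 1.28) and excludes it with 11 (0.36 to 1.24), before adjustment over genes.

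Cholesterol synthesis is controlled by SREBP, which is released when membrane sterol is low. Of 17 listed genes 16 were tested (Idi1 was at most 0.422 FPKM), and none passed. With both 12 and 11 libraries 14 of the 16 were below 0, where 5584 and 3026 of all 9650 were, with a median difference of −0.39 in each, and 6 negative and no positive members reached an unadjusted p under 0.05 each time, against 0.736% and 0.632% negative over all genes. The median effect of apoTf on the 16 genes was −0.24 in β-thalassemic Pro-E and 0.22 in WT Pro-E, or 0.12 in WT Pro-E without WT replicate 1, against 0.03, 0.10 and −0.06 over all genes tested. The members are thus lower after apoTf in β-thalassemic and slightly higher in WT Pro-E at the median.

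Insig1, which holds the SREBP complex back, was at 3.17, 2.98 and 3.02 FPKM in apoTf-treated β-thalassemic against 3.93, 4.38 and 3.83 FPKM in β-thalassemic libraries. It was at 3.96, 4.20 and 3.85 FPKM in apoTf-treated WT against 1.68, 3.87 and 3.20 FPKM in WT libraries, where replicate 1 was lowest. The apoTf-treated β-thalassemic libraries did not overlap their untreated counterpart, while the WT groups overlapped. The difference was −0.81 ± 0.30 and −0.51 ± 0.16 without it (adjusted p = 0.764 and 0.781, limma).

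Cyp51, a sterol demethylase, had differences of −1.08 with 12 and −0.67 with 11 libraries, and Hmgcs1, the synthase at the head of the pathway, of −0.69 and −0.46. Msmo1 had −1.08 and −0.57, and Sqle −0.51 and −0.35. For each of these the size shrank without WT replicate 1, and for Cyp51 that library was at 1.1 FPKM against 3.65 and 2.77 FPKM in the other WT libraries. Stard4, a sterol carrier outside the list, was at 4.74, 4.72 and 4.65 FPKM in apoTf-treated β-thalassemic against 6.60, 6.31 and 7.07 FPKM in β-thalassemic libraries, with groups that did not overlap. Its difference was −0.80 ± 0.24, and −0.64 ± 0.18 without WT replicate 1 (adjusted p = 0.764 and 0.781, limma).

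The other genes ranked lowest were Vps13c, Fabp5 and Lrrc8b. Vps13c, a lipid-transfer protein, was at 16.0, 15.3 and 13.9 FPKM in apoTf-treated β-thalassemic against 25.5, 32.2 and 21.1 FPKM in β-thalassemic libraries, and between 6.42 and 14.2 FPKM in WT libraries. Fabp5, a fatty-acid-binding protein, was at 3.52, 1.94 and 1.61 FPKM in apoTf-treated β-thalassemic against 6.08, 10.2 and 5.48 FPKM in β-thalassemic libraries, and between 0.69 and 2.13 FPKM in WT libraries. Lrrc8b, a subunit of volume-regulated anion channels, was at 4.87, 3.04 and 3.15 FPKM in apoTf-treated β-thalassemic against 5.97, 7.88 and 6.84 FPKM in β-thalassemic libraries, and between 3.30 and 3.72 FPKM in WT libraries. In all 3 the untreated β-thalassemic libraries were the highest. The differences were −1.20, −1.66 and −0.73 in this order of genes, and −0.93, −1.37 and −0.75 without WT replicate 1.

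Globins and the genes of haem and iron handling had list medians between −0.25 and 0.13. Of 17 tested iron genes, none passed, and the median was 0.03 with 12 and 0.05 with 11 libraries. Ftl1, ferritin light chain, was at 136, 134 and 135 FPKM in apoTf-treated β-thalassemic against 116, 133 and 140 FPKM in β-thalassemic libraries, and at 81.4, 93.6 and 91.4 FPKM in apoTf-treated WT against 144, 109 and 136 FPKM in WT libraries. The WT groups did not overlap and the β-thalassemic groups did, with a difference of 0.60 ± 0.20 (adjusted p = 0.764, limma). Tfr2, the transferrin receptor that senses iron, had a difference of 0.61, and Slc25a28, a mitochondrial iron importer, of 0.54. With each library's GC trend removed these were 0.12 for Ftl1, 0.15 for Tfr2 and 0.32 for Slc25a28. For Tfrc, the receptor that carries transferrin iron into erythroblasts, the difference was −0.89, and −0.18 without WT replicate 1, where Tfrc was at 77.3 FPKM against 295 to 494 FPKM in the other 11 libraries.

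The median over 15 genes of haem synthesis was −0.02 with 12 and 0.13 with 11 libraries. For 7 globin genes it was −0.25 and 0.03. Hba-a1, an α-globin gene, had a difference of 0.83 ± 0.52, and Hbb-bs of −0.58 ± 0.61, and both 95% intervals included 0. The Hba-a1 and Hba-a2 entries are near-identical copies, as are the β-globin entries. Only single alignments were kept, so reads that match several copies were not counted, and the level of each copy is uncertain.

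Over the remaining lists the medians with 12 and 11 libraries were 0.22 and 0.32 for 13 erythroid transcription factors, 0.16 and 0.18 for 11 genes of the haem-regulated kinase and ATF4, and 0.02 and 0.01 for 18 red cell membrane genes. They were −0.17 and 0.11 for 16 antioxidant genes, −0.10 and 0.07 for 11 genes of cofilin, actin and Rac, 0.05 and 0.10 for 10 interferon genes, and −0.21 and −0.11 for 11 immediate early genes. They were −0.05 and 0.18 for 80 ribosomal proteins, −0.07 and 0.17 for 73 respiratory chain genes, −0.35 and 0.04 for 20 mitotic genes, and −0.19 and −0.03 for 6 hypoxia genes. None of their members passed. With and without WT replicate 1 the sign changed for the antioxidant, cofilin, ribosomal, respiratory and mitotic lists, as it did for haem synthesis, globins and the median of all genes.

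**Figure D4:**
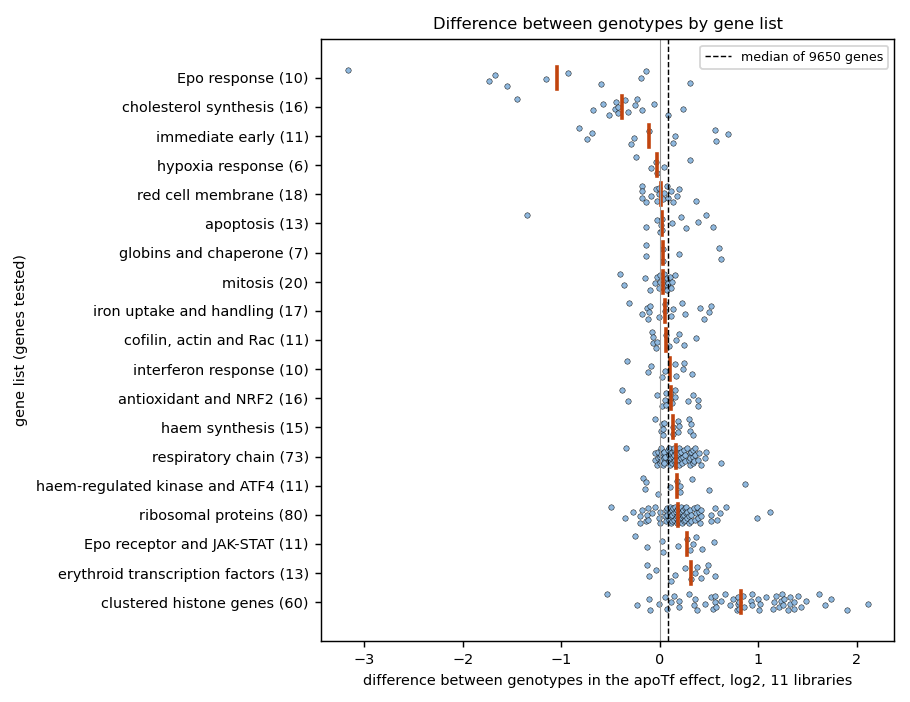
Genotype difference in apoTf response (log2, 11 libraries) for each tested gene (points) of 18 lists and of the clustered histone genes, with the median of each list as an orange bar and the median of 9650 genes (0.08) as a dashed line. The Epo-responsive list has its median at −1.04, cholesterol synthesis at −0.39 and the clustered histones at 0.82.

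Positive differences were more numerous. Among the 296 genes positive in both comparisons at an unadjusted p under 0.05, 295 were below 0 for the effect of apoTf in WT Pro-E with 11 libraries, with a median of −0.41, and 294 were above 0 in β-thalassemic Pro-E, with a median of 0.21. The 54 negative genes were all below 0 in β-thalassemic Pro-E, with a median of −0.56, while 36 were above 0 in WT Pro-E, with a median of 0.15. These genes were picked by the same contrast, so the signs are a description.

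Clustered histone genes, which supply histones during DNA replication and whose mRNAs end in a stem-loop in place of a poly(A) tail, made up 32 of the 296, and 60 of the 9650 genes tested. They were listed after their values were seen. Of 69 genes 60 were tested, none passed, 55 were above 0 in both comparisons (4066 of 9650 with 12 and 6624 with 11 libraries over all genes), and the median was 0.93 with 12 and 0.82 with 11 libraries. At an unadjusted p under 0.05, 37 were positive and none negative in each, against 4.17% and 4.31% of all genes tested. Their median effect of apoTf was 0.31 in β-thalassemic Pro-E and −0.65 in WT Pro-E, or −0.53 in WT Pro-E without replicate 1.

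Hist1h2bc was at 36.5, 33.4 and 54.4 FPKM in apoTf-treated β-thalassemic against 24.5, 23.6 and 28.1 FPKM in β-thalassemic libraries. It was at 11.1, 14.9 and 25 FPKM in apoTf-treated WT against 49.7, 25.3 and 58.3 FPKM in WT libraries. Within each genotype the groups did not overlap, though WT replicate 2 and apoTf-treated WT replicate 3 nearly met. The difference was 2.02 ± 0.47 (adjusted p = 0.764, limma), and 1.9 without WT replicate 1. Hist1h2bk, Hist1h2ah, Hist1h2bg and Hist1h2af had differences of 1.74, 1.52, 1.54 and 1.87. Summed over the 69 genes, levels were 12275–14913 FPKM in apoTf-treated β-thalassemic, 11062–11897 FPKM in β-thalassemic, 8178–12620 FPKM in apoTf-treated WT and 10246–17897 FPKM in WT libraries. Only single alignments were kept, so reads that match several near-identical members were not counted, and the level of each member is uncertain.

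Rpph1 and Rmrp, short structured RNAs picked by hand, had positive differences too. Other RNAs of this kind were not examined as a set. Rpph1, the RNA of ribonuclease P, was at 3094, 2771 and 3121 FPKM in apoTf-treated β-thalassemic against 1827, 2052 and 2053 FPKM in β-thalassemic libraries, and at 1106, 753 and 2007 FPKM in apoTf-treated WT against 5447, 2981 and 1689 FPKM in WT libraries. For Rpph1 the WT groups overlapped and the β-thalassemic groups did not. Rmrp, the RNA of the related enzyme RNase MRP, had a difference of 1.38 with 12 and 1.63 with 11 libraries, beside 1.94 and 1.52 for Rpph1 (adjusted p from 0.764 to 0.781, limma). GC content moved with the result as well. Genes positive at an unadjusted p under 0.05 had a median exonic GC of 58.0% with 12 and 56.6% with 11 libraries, against 49.3% for all genes tested, and negative genes 46.6% and 47.7%. Across 9584 genes the difference had a Spearman correlation with GC of 0.76 with 12 and 0.40 with 11 libraries, the effect in WT Pro-E one of −0.80 and −0.57, and that in β-thalassemic Pro-E one of −0.05. With 12 libraries and each library's GC trend removed, an alternative chosen after the values were seen, the histone median was 0.50, with 44 of 60 above 0. The medians of the Epo-responsive and cholesterol lists were −1.27 and −0.50. The same removal with 11 libraries gave 0.56, −1.15 and −0.36 for these lists in this order, against 0.82, −1.04 and −0.39 before it. With 12 libraries Podxl passed at −3.32 after the removal (adjusted p = 0.0379, limma). Of 49 named genes with a positive 12-library difference, 35 were then smaller by over 1.5 times or negative, among them Romo1 (0.46), Rplp1 (0.63), Hist1h2ah (0.48), Hist1h2af (0.80) and Hba-a1 (0.41), while Hist1h2bc was at 2.17. Of 39 with a negative difference, 11 were. The part of GC content and of poly(A) selection in these differences was not tested.

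Among single genes, H2-T23, which encodes the non-classical MHC class I molecule Qa-1, was at 9.99, 10.6 and 10.5 FPKM in apoTf-treated β-thalassemic against 6.14, 7.14 and 7.12 FPKM in β-thalassemic libraries, and at 8.15, 9.19 and 9.88 FPKM in apoTf-treated WT against 13.1, 9.66 and 14.8 FPKM in WT libraries. The β-thalassemic groups did not overlap, with treated libraries higher, and the WT groups overlapped. Its difference was 1.01 ± 0.23 (adjusted p = 0.744, limma), and 0.97 without WT replicate 1 (adjusted p = 0.635). Lrig1, which restrains growth factor receptors and was chosen after its values were seen, was at 3.57, 3.85 and 3.80 FPKM in apoTf-treated β-thalassemic against 2.41, 2.37 and 2.46 FPKM in β-thalassemic libraries, and between 4.0 and 5.03 FPKM in every WT library. Here the untreated β-thalassemic libraries were the lowest, with a difference of 0.70 ± 0.17 and, without WT replicate 1, of 0.73 ± 0.14 (adjusted p = 0.764 and 0.364, limma).

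Klhl24 and Sqrdl had an unadjusted p under 0.05 without WT replicate 1 and not with it. Klhl24, a substrate adaptor for ubiquitin ligases, was at 6.75, 6.99 and 6.70 FPKM in apoTf-treated β-thalassemic against 5.09, 3.52 and 4.76 FPKM in β-thalassemic libraries, and at 5.86, 7.83 and 6.68 FPKM in apoTf-treated WT against 2.90, 7.62 and 8.30 FPKM in WT libraries. Replicate 1 was the lowest of all 12 libraries, and the difference was 0.36 ± 0.42 with it and 0.80 ± 0.20 without it. Sqrdl, a mitochondrial enzyme that oxidises sulfide, had 0.52 ± 0.27 and 0.73 ± 0.19. Rplp1, an acidic ribosomal protein, and Romo1, a mitochondrial inner membrane protein, had 1.06 and 1.09 with 12 and 0.99 and 0.87 with 11 libraries. None of these 4 passed (adjusted p from 0.706 to 0.764, limma).

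**Figure D5:**
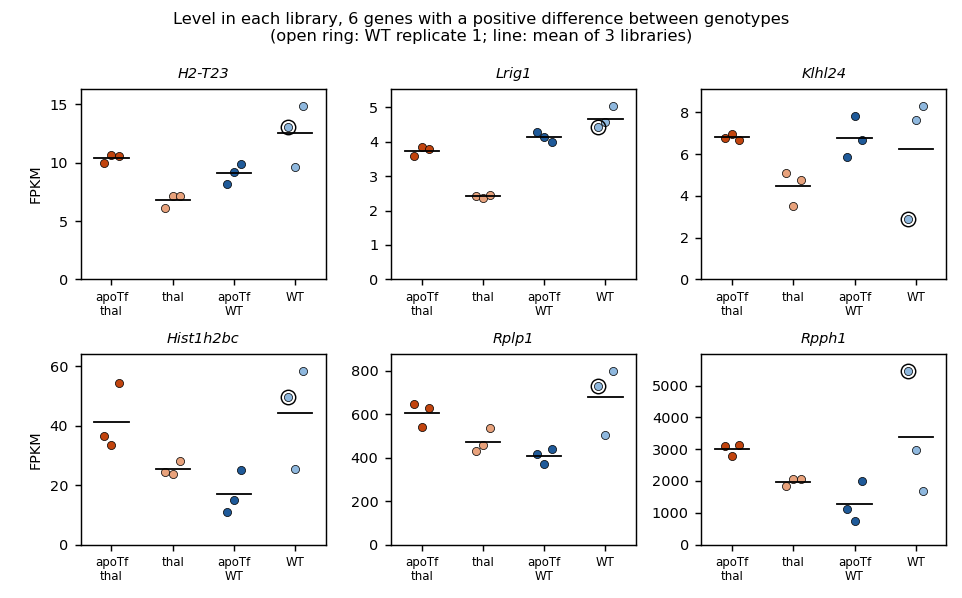
FPKM of 6 genes with a positive difference between genotypes in each library (points), by group, with the mean of 3 libraries as a line and WT replicate 1 ringed. For Rpph1, WT libraries ran from 1689 to 5447 FPKM, wider than any other group, while for H2-T23 and Lrig1 the β-thalassemic libraries were below the other groups.

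How many genes passed moved with single WT libraries. With WT replicates 1 and 2 both left out, which leaves 1 untreated WT library and assumes that it varies like the other groups, 23 genes passed for the difference, 19 positive and 4 negative, with H2-T23 among them. Without WT replicate 1 and apoTf-treated WT replicate 3, 6 genes passed, among them Podxl and Cda. With WT replicate 2 alone left out, 449 genes passed for the effect of apoTf in WT Pro-E, where none passed with all libraries.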

How the data were processed

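Polyadenylated RNA of sorted Pro-E was sequenced in 12 libraries. Per the study's methods, STAR alignments to mm10 were made by the authors, who kept single alignments and counted exon reads on both strands with HOMER, and the deposited values are FPKM rounded to 3 decimals. Without strand, antisense neighbours cannot be separated. Versions of these tools are not given in the sources used here, and the labels also name featureCounts and edgeR. The authors' own fold changes and p columns were not used. Libraries held 33300000 to 51400000 reads, with 95.1% to 97.3% of low values within 0.05 read of a whole number, and this depth sets a floor under low FPKM.

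Values were analysed as log2 of FPKM plus 0.5 with limma 3.58.1 (lmFit, eBayes with trend) in R 4.3.3, with 4 group means, two-sided tests and Benjamini-Hochberg adjustment over the 9650 genes tested at a threshold of 0.05. Fold changes on this scale understate low genes. Genes were named if they passed for any apoTf effect, if the study discusses them, if they ranked among the first 10 per direction in the 11-library comparison with a group mean of at least 5 FPKM, or as up to 4 genes per list with the smallest p. Osm and Cish, which the study's text does not discuss, were also picked by hand, and Cish met none of the other rules. Others were chosen after their values were seen, and 1 gene that passed is not reported here. Members and lists were chosen with earlier results of these data known. Alternatives were pseudocounts of 0.1 and 1, a 5 FPKM filter or none, scaling by median ratios or quantiles, no trend, robust eBayes, a replicate block, each library left out, and removal of each library's GC trend, added after the values were seen.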

Additional observations from a re-analysis of the deposited data

How the results depend on the processing

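With no filter 1 gene passed for the genotype difference with 12 libraries (Fam124a) and 1 with 11 (Pon1), 7 for apoTf in β-thalassemic Pro-E, and 1 with 12 and 3 with 11 libraries for apoTf in WT Pro-E. With the GC trend removed 1 gene, Podxl, passed for the difference with 12 libraries (−3.32). With the replicate block, 0 genes passed for the difference with 12 or 11 libraries, 1 (Podxl) with 12 and 6 with 11 libraries for apoTf in β-thalassemic Pro-E, and 0 for apoTf in WT Pro-E. Over the 18 same-numbered pairs r ran from −0.39 to 0.51 (median −0.04, 6 over 0.1). All 3 pairs of apoTf-treated β-thalassemic and apoTf-treated WT libraries were over 0.1 (0.51, 0.25 and 0.46), and no other pair of groups had this. For the genotype gap under apoTf the block left 4 genes called with 12 libraries and gave 10 in place of 7 with 11, and Podxl stayed uncalled (adjusted p = 0.757, limma). Leaving out each library in turn gave 0 to 1 genes for the difference with 12 libraries and 0 to 23 with 11, 1 to 6 for apoTf in β-thalassemic Pro-E, with Podxl in each set, and 0 to 449 with 12 and 0 to 3 with 11 libraries for apoTf in WT Pro-E. The correlation of both effects was 0.0121 without WT replicate 1. Removal of the GC trend turned the sign of the 12-library difference for Ndufa13 (−0.13), Klf1 (−0.074), Keap1 (−0.0088), Zfpm1 (−0.12), Atf5 (−0.062), Plk1 (−0.011), Bak1 (−0.11), Epb41 (0.054) and Sh2b3 (−0.19). Pdk1 ranged from −0.71 to 0.046 over libraries left out, with 0.046 without WT replicate 1. The median of the Epo-responsive genes was −0.66 with 12 and −0.60 with 11 libraries under a filter of 5 FPKM, and −1.28 and −1.36 without β-thalassemic replicate 3. The median of all genes tested lay between −0.19 and 0.08 over the settings. Of 109 alternatives for counts of genes and the correlation of both effects, 89 stayed within 1.5 times the count reported, or at 0 where it was 0. Of 2041 for single genes and lists, 2022 were unchanged. For a single gene this means the same direction and call, and no single gene was called for the difference to begin with. For a list it means a median that moved by less than the spread between libraries of a group. Of the others, 10 reversed, 2 gained a call and 7 list medians moved further. The cause of these shifts was not tested. With 3 libraries per group, genotype differences smaller than about 0.63 on the log2 scale could not be told from 0 for a typical gene, before adjustment. Much larger ones did not pass after adjustment over genes.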
